A study of Mus musculus with 6 samples.

Results

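The 8 genes described here are known from the places where joints form: Gdf5, Gdf6, Prg4, Osr1, Osr2, Barx1, Creb5 and Dact2. They were chosen by name as genes of the joint interzone and of articular cartilage and were matched by symbol to gene IDs of the count table, where 8 of 8 were found among 55487 gene IDs. All 8 were among the 26596 genes with enough counts to be tested. RNA-Seq was performed on rib RNA of 6 mouse embryos at 16.5 dpc. The 3 controls (embryos E420, E434 and E435) are labelled wild type. The 3 mutants (embryos E423, E433 and E440) are labelled Col2-cre;Foxc1-/-;Foxc2-/-, and in the methods of the study they arose from floxed alleles of both genes deleted by the Col2-cre transgene, on a mixed C57B6 and Black Swiss background. Col2-cre is active in chondrocytes and in the perichondrium, and not in every cell of a rib, so the deletion does not reach cells outside this lineage. The mothers of this cross were homozygous for both floxed alleles, so control embryos carry floxed alleles although labelled wild type. For the skeletal preparations of the study controls were embryos without Col2-cre, and the exact genotype of each control sequenced was not given in the sources used here. Each library is 1 embryo.

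As background, a joint begins as a band of flattened cells, the interzone, that interrupts a continuous cartilage rod. Interzone cells stop making type II collagen, secrete growth factors such as GDF5 and later give rise to articular cartilage, the joint lining and ligaments. GDF5 and GDF6 are secreted factors of the bone morphogenetic protein (BMP) family, which act through type I and type II receptor kinases and the receptor-regulated Smads 1, 5 and 9. In a rib cage, joints lie between ribs and vertebrae and between rib cartilages and the sternum, and how much of each was kept in the dissected ribs was not given in the sources used here.

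Both deleted genes were checked first. Foxc1 lay at 23.1, 36.9 and 24.2 CPM (counts scaled to the size of the library) in controls E420, E434 and E435, against 3.56 CPM in mutant E423, 9.61 CPM in E433 and 3.51 CPM in E440, and Foxc2 also lay below every control in each mutant. For Foxc1 the adjusted p-value was 0.235 in edgeR and 9.63e-07 in DESeq2, a gap between the tools that recurs below. The count totals of the 6 libraries ran from 37853988 to 47794799, and 1 count equalled 0.0206 to 0.0255 CPM. Embryos E434 and E433 stood apart from the others of their groups in cartilage RNA. The mean log2 CPM of 10 chondrocyte markers was 9.72 in E434 and 8.37 in E433. It was 6.02 and 5.98 in the other controls and 4.60 and 4.56 in the other mutants. Cartilage RNA was thus present in all 6 libraries but at very different levels. The 5 keratinocyte markers, which belong to skin, summed to 15.5 CPM in E434 and 2740 CPM in E433 and to between 4550 and 23700 CPM in the other 4 libraries. Fat cell markers summed to 132 to 150 CPM in controls and 197 to 590 CPM in mutants, skeletal muscle markers to 8000 to 13300 and 10100 to 17400 CPM, and mesothelium markers to 28.0 to 74.8 and 33.6 to 75.2 CPM. Hepatocyte markers were high in E433 alone (573 CPM, against at most 45.0 CPM elsewhere), and lung epithelium markers stayed at or under 1.01 CPM, with Nkx2-1 and Sftpb too low to be tested. The controls E420 and E435 were close to each other (SD over genes of their log2 difference 0.155), and so were the mutants E423 and E440 (0.134), whereas all other pairs of libraries lay between 0.482 and 1.45. The methods of the study say that comparisons used littermates, but the litter and preparation of each embryo were not given in the sources used here, so p-values measure the spread between these samples, which may be partly technical.

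The genes of this set that have a close relative can be told apart in the counts where a 42-base read, or the other end of its pair, differs between them. The most alike coding stretches of that length, taken from GENCODE transcripts on GRCm38, are printed because they show how much sequence separates Osr1 from Osr2 and Gdf5 from Gdf6, the pairs whose values are compared below. Capitals mark the bases that differ within a pair. The Osr1 stretch is at chr12:9579732-9579773 on the plus strand and the Osr2 stretch at chr15:35300894-35300935 on the plus strand, and they differ at 4 of 42 bases. The Gdf5 stretch is at chr2:155941771-155941812 on the minus strand and the Gdf6 stretch at chr4:9860015-9860056 on the plus strand, and they differ at 5 of 42 bases. All of them are coding exon sequence.
Osr1: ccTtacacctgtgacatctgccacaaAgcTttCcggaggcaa
Osr2: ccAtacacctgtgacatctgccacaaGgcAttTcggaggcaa
Gdf5: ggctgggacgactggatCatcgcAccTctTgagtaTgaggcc
Gdf6: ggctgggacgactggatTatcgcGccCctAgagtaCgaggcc
No coding stretch of 42 bases was identical between a member and a relative that was compared: the fewest differences were 4 for Barx1 and Barx2, 8 for Dact2 and Dact1, 4 for Creb5 and Atf2, and 5 for Gdf5 and Gdf7. Gdf6 and Gdf7 came closest, with 3 differences.

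The joint genes were expressed at low to moderate levels and spanned a wide range per length. In TPM (a level that accounts for transcript length), Osr1 was highest with a mean of 21.1 ± 2.78 TPM (SD, n = 6), followed by Osr2 with 11.1 ± 1.89 TPM, Creb5 with 6.42 ± 1.34 TPM and Gdf5 with 3.15 ± 3.67 TPM. Dact2 with 1.29 ± 0.247 TPM, Prg4 with 1.19 ± 0.489 TPM, Barx1 with 0.595 ± 0.270 TPM and Gdf6 with 0.348 ± 0.158 TPM made up the lower end. The order is a description over both genotypes. Osr1 was above Osr2 without overlap (17.9 to 25.3 TPM against 8.51 to 14.0 TPM), and Osr2 was above Creb5 in 6 of 6 libraries although their ranges overlapped. Gdf5 could not be placed against its neighbours: it was above Dact2 in 4 of 6 libraries and below Creb5 in 5 of 6, because its level alone moved from 0.620 TPM in mutant E423 to 10.3 TPM in control E434. Dact2 and Prg4 did not differ beyond their spread, with Dact2 above Prg4 in 4 of 6 libraries, whereas Prg4 was above Barx1 in 6 of 6 and Barx1 above Gdf6 in 5 of 6. Of all genes tested, 78.0% had a lower mean TPM than Osr1, 52.3% a lower one than Gdf5 and 31.9% a lower one than Gdf6.

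**Figure D1:**
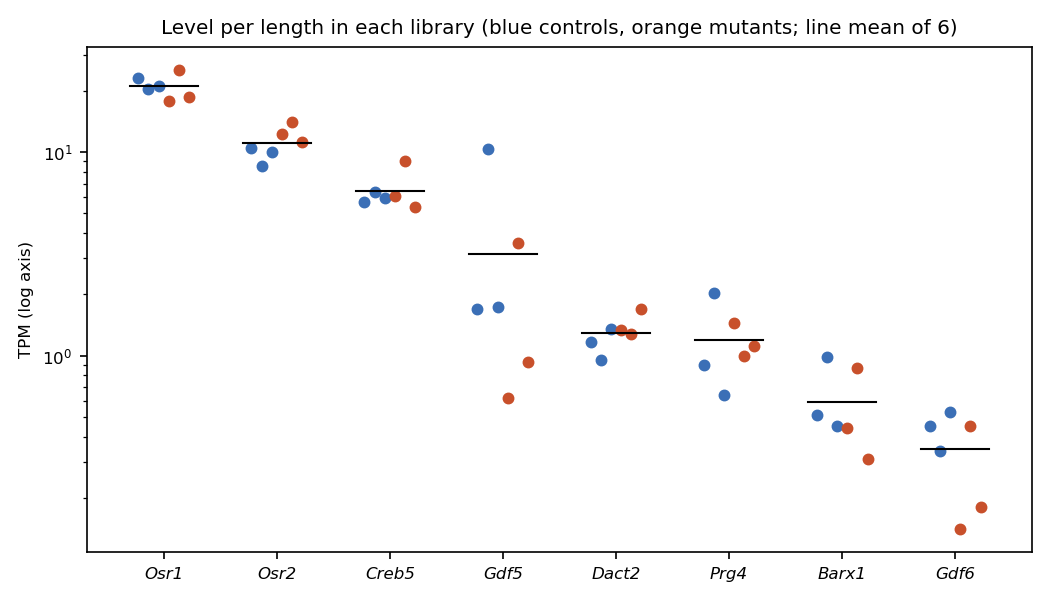
Level per length of each joint gene (vertical log axis, TPM) in the 6 libraries, with controls E420, E434 and E435 in blue from the left, mutants E423, E433 and E440 in orange, and the mean of 6 as a line. Osr1 lies highest between 17.9 and 25.3 TPM, Gdf6 lowest between 0.140 and 0.530 TPM, and Gdf5 spreads from 0.620 to 10.3 TPM.

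Mutants, which lost both Foxc genes in the Col2-cre lineage, were compared with controls. The values are for rib tissue as a whole and do not isolate joint-forming cells. Of the 8 joint genes, 0 passed both limits in edgeR's quasi-likelihood test, which were an adjusted p-value below 0.1 and a log2 fold change of 1 or more in either direction, and over all 26596 genes tested 0.0639% did. At an unadjusted p-value under 0.05 in edgeR, 1 of 8 was counted (Osr2, higher), against a background of 10.6% of all genes. All 3 mutants lay on the same side of every control for 1 of 8, again Osr2 (higher), where 15.0% of all genes had groups apart in this way and 6.81% had every mutant above every control. DESeq2's Wald test gave 1 of 8 an adjusted p-value under 0.1 at any fold change, where 3.57% of all genes had one. Log2 fold changes were below 0 for 5 members and above 0 for 3, with a median of -0.02, and the median over all genes tested was 0.01. In whole tissue, fewer cells of a type and less RNA per cell cannot be told apart.

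**Figure D2:**
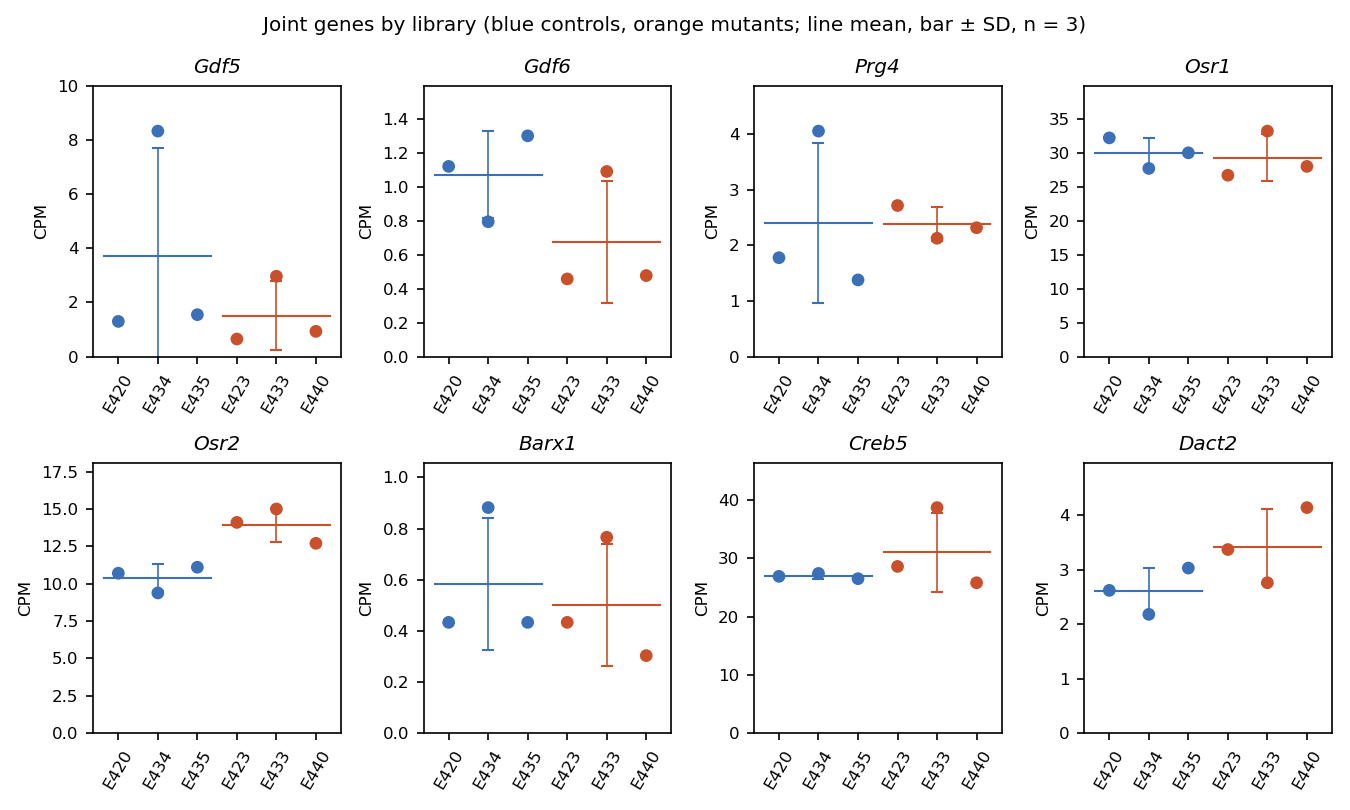
CPM of each joint gene in every library (vertical axes start at 0), with controls in blue, mutants in orange, the group mean as a line and 1 SD either way as a bar (n = 3); the bar of the Gdf5 controls runs below 0 and is not drawn there. Only for Osr2 do the mutants, at 12.7 to 15.0 CPM, all sit above the controls, at 9.38 to 11.1 CPM.

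Among the secreted factors, Gdf5, the growth factor that marks the interzone, had the widest spread. Its level was 1.30 CPM in control E420, 8.34 CPM in E434 and 1.55 CPM in E435, against 0.649 CPM in mutant E423, 2.97 CPM in E433 and 0.932 CPM in E440. The cartilage-rich embryos E434 and E433 were the highest of their groups, and the groups overlapped through mutant E433. The counts behind these values were 51, 378 and 75 in controls and 27, 128 and 43 in mutants, and the 95% Poisson intervals, which cover counting error only, left E434 (7.52 to 9.22 CPM) and E433 (2.48 to 3.53 CPM) apart from the other libraries of their groups. Control means were 3.73 ± 4.0 CPM and mutant means 1.52 ± 1.27 CPM (SD, n = 3 each). The log2 fold change was -1.30 (standard error, SE, 0.892; 95% interval -3.44 to 0.84, adjusted p = 0.640 in edgeR), so a fall of 2-fold and an unchanged level both lay inside the interval. Without control E434 alone the log2 fold change of Gdf5 was 0.09, and without both cartilage-rich embryos, E434 and E433, it was -0.84.

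Gdf5 (ENSMUSG00000038259.4, chromosome 2 from 155941023 to 155945367, minus strand, GRCm38) moved with cartilage RNA across the libraries. Ordered by the chondrocyte marker level, E434 and E433 came first, then the controls E420 and E435, then the mutants E423 and E440, and the Gdf5 level followed this order except for an exchange within each close pair. Keratinocyte markers ran nearly the other way. Their mean log2 CPM was 1.07 in E434, 7.97 in E433, 8.85 in E420, 8.92 in E435, 10.43 in E440 and 10.46 in E423. The part of either tissue in the Gdf5 values was not tested. Embryo E434 exceeded the mean of the other controls by 2.52 in log2 CPM for Gdf5 and by 3.72 for the chondrocyte markers, and E433 exceeded the other mutants by 1.87 and 3.79. With the chondrocyte marker level as a covariate, the log2 fold change of Gdf5 was -0.27 (SE 0.254, adjusted p = 0.688 in edgeR). The 10 markers behind this covariate all had log2 fold changes below 0 (median -1.32), although the groups overlapped for each. A covariate that is itself lower in mutants on average can take up part of a genotype effect. How much of the Gdf5 difference it took up in this way was not tested. Of the other members, Barx1 was also higher in both of these embryos, by 0.96 in E434 and 0.99 in E433, whereas Prg4 was higher in E434 alone (1.35, against -0.23 in E433) and Gdf6 in E433 alone (1.15, against -0.58 in E434). On the other strand of Gdf5 lies the gene Gm15557, whose exons cover 936 bases (40.3%) of the Gdf5 exons, so reads there were not assigned to either gene. Gm15557 itself had 0 to 2 counts, and on the expected counts, made by another pipeline, the log2 fold change of Gdf5 was -1.43.

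**Figure D3:**
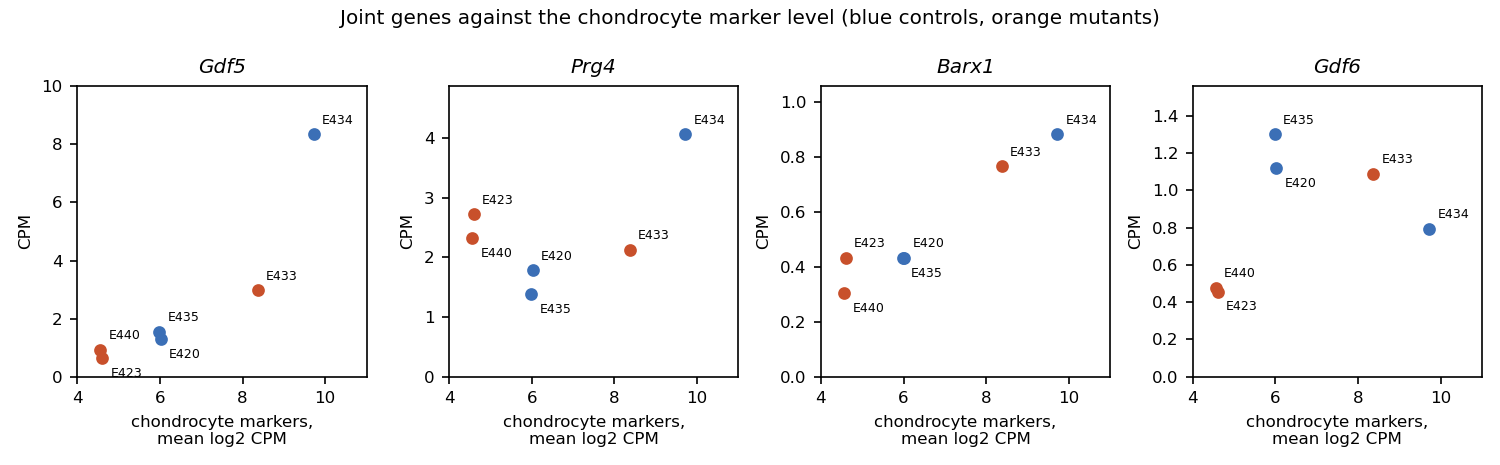
CPM of Gdf5, Prg4, Barx1 and Gdf6 (vertical axes start at 0) against the mean log2 CPM of 10 chondrocyte markers in each of the 6 libraries, controls in blue and mutants in orange. Gdf5 and Barx1 are highest in E434 and E433, Prg4 is high in E434 only, and Gdf6 is lowest in the mutants E423 and E440.

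Ratios within a library, chosen after the values were seen, gave a Gdf5 result that depended on the cartilage gene used. Gdf5 counts divided by those of Sox9, the transcription factor of chondrocyte identity, were 0.0618, 0.0791 and 0.0806 in controls and 0.0330, 0.0423 and 0.0479 in mutants. These groups did not overlap, and the exact 2-sided permutation p-value was 0.1, the smallest that 3 against 3 can give. Divided by Col2a1, the major collagen of cartilage, the ratio was 0.00206, 0.000578 and 0.00266 in controls and 0.00366, 0.000603 and 0.00573 in mutants, which overlapped. Over all 10 chondrocyte markers used as divisor, the mean log2 ratio of Gdf5 was lower in mutants for 1, higher for 8 and equal to 2 decimals for 1. The groups were apart for Sox9 alone. With 10 divisors tried, the p-value of the Sox9 ratio adds no support for a lower ratio.

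Gdf6 (ENSMUSG00000051279.2, chromosome 4 from 9844372 to 9862345, plus strand), a close relative of Gdf5, did not follow cartilage RNA in the same way. Controls E420, E434 and E435 had 1.12, 0.794 and 1.30 CPM, and the mutants had 0.457 CPM (E423), 1.09 CPM (E433) and 0.477 CPM (E440). Mutants E423 and E440 lay below all controls, and mutant E433 lay within the control range. Its log2 fold change was -0.67 (SE 0.409, 95% interval -1.65 to 0.32, adjusted p = 0.598 in edgeR). Counts were low, 36 to 63 in controls and 19 to 47 in mutants, and the Poisson intervals of E423 (0.275 to 0.714 CPM) and control E434 (0.556 to 1.10 CPM) overlapped. Without mutant E433 the log2 fold change was -1.19 with an adjusted p-value of 0.0813 in edgeR, past both limits, in a fit where 4.21% of all genes passed them.

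The lubricant and the transcription factors came next. Prg4 encodes lubricin, secreted onto the joint surface by superficial articular and synovial cells. It had 1.78 CPM in control E420, 4.06 CPM in E434 and 1.38 CPM in E435, against 2.72 CPM in mutant E423, 2.13 CPM in E433 and 2.32 CPM in E440. The control range enclosed all mutants, and 1 control, the cartilage-rich E434, set its upper end. The log2 fold change of Prg4 (ENSMUSG00000006014.16, chromosome 1 from 150449412 to 150466165) was -0.01 (SE 0.408, 95% interval -0.99 to 0.97, adjusted p = 0.996 in edgeR), an interval that still holds nearly a 2-fold difference either way. Without E434 it was 0.60 (adjusted p = 0.441 in edgeR), and a value this close to 0 also turned above 0 without mutant E433 (0.07), without mutant E440 (0.01) and on the expected counts (0.13). The 3′ end of Prg4 overlaps exons of the abundant gene Tpr on the other strand over 204 bases (4.77% of its exon length), and reads hitting exons of both were not assigned to either gene.

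Osr1 and Osr2 encode zinc finger transcription factors of embryonic connective tissue that act together in joint formation. Osr1 (ENSMUSG00000048387.8, chromosome 12 from 9570116 to 9581500) varied little across the libraries, with 32.2, 27.7 and 30.0 CPM in controls and 26.7, 33.2 and 28.0 CPM in mutants. The groups overlapped, and the log2 fold change was -0.03 (SE 0.114, 95% interval -0.31 to 0.24, adjusted p = 0.938 in edgeR). With 1112 to 1457 counts per library, a change of 2-fold lay well outside this interval.

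Osr2 (ENSMUSG00000022330.5, chromosome 15 from 35296098 to 35303305) was the member whose groups did not overlap. Controls E420, E434 and E435 had 10.7, 9.38 and 11.1 CPM and mutants E423, E433 and E440 had 14.1, 15.0 and 12.7 CPM, so each mutant exceeded each control. Means were 10.4 ± 0.893 CPM in controls and 13.9 ± 1.16 CPM in mutants (SD, n = 3 each). The log2 fold change was 0.42 (SE 0.121, 95% interval 0.13 to 0.71), with an adjusted p-value of 0.387 in edgeR, which missed the limit, and of 0.0740 in DESeq2. The direction held in all 15 other fits, between 0.29 and 0.48.

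As Osr1 varied little, the ratio of Osr2 to Osr1 counts, chosen after the values were seen, moved with Osr2. It was 0.333, 0.339 and 0.369 in controls and 0.526, 0.450 and 0.453 in mutants, with no overlap and an exact 2-sided permutation p-value of 0.1, the smallest possible here. As the groups were already apart for Osr2 alone, this p-value adds no separate support. Fibroblast markers moved beside it. Of 7 markers of connective tissue fibroblasts, 4 were above every control in all mutants (Dpt, Pi16, Dcn and Twist2) and 1 was below (Lum). Of all genes tested, 6.81% were above every control in all mutants and 8.21% were below. The summed level of these markers overlapped, 9100 to 10100 CPM in controls and 9380 to 12200 CPM in mutants. The part of these cells in the Osr2 values was not tested.

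Barx1 (ENSMUSG00000021381.4, chromosome 13 from 48662998 to 48666507), a homeobox factor of the interzone known to restrain cartilage formation, had 0.433, 0.882 and 0.433 CPM in controls and 0.433, 0.766 and 0.303 CPM in mutants. The cartilage-rich embryo was the highest of each group, and the groups overlapped almost fully. The 95% Poisson interval of E434 overlapped those of E420 and E435, and the interval of E433 overlapped that of E423. Only 14 to 40 counts stood behind each value, and the log2 fold change of -0.22 had a 95% interval from -1.35 to 0.90 (SE 0.468, adjusted p = 0.893 in edgeR). A 2-fold fall in Barx1 lay inside this interval.

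Creb5 encodes a basic leucine zipper factor of superficial articular cartilage that promotes Prg4 expression there. It was even in controls, at 26.9, 27.4 and 26.5 CPM, and lay at 28.6, 38.7 and 25.8 CPM in the mutants. Mutant E433 alone stood above the control range by more than counting error (36.9 to 40.6 CPM, 95% Poisson interval), and mutant E440 lay below all controls. The log2 fold change of Creb5 (ENSMUSG00000053007.9, chromosome 6 from 53287270 to 53700376) was 0.20 (SE 0.157, 95% interval -0.17 to 0.58, adjusted p = 0.677 in edgeR), and it was 0.02 without E433. Creb5 and Prg4 were not highest in the same embryo: E433 had the most Creb5 and a middle Prg4 level, and E434 had the most Prg4 and a middle Creb5 level.

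Dact2 encodes an intracellular adaptor that binds Dishevelled and tunes Wnt and TGF-beta signals. Its levels were 2.62, 2.18 and 3.03 CPM in controls and 3.37, 2.76 and 4.14 CPM in mutants. Mutants E423 and E440 exceeded all controls, and mutant E433 lay among them. Mutants over controls, the log2 fold change of Dact2 (ENSMUSG00000048826.7, chromosome 17 from 14195052 to 14204304) was 0.39 (SE 0.213, 95% interval -0.12 to 0.90, adjusted p = 0.555 in edgeR). Embryos E434 and E433 had the least Dact2 of their groups, 0.36 and 0.43 below the others in log2 CPM, opposite to Gdf5 and Barx1. The 95% Poisson intervals of E434 (1.78 to 2.66 CPM) and control E420 (2.14 to 3.18 CPM) overlapped. Those of E433 (2.29 to 3.30 CPM) and mutant E423 (2.83 to 3.97 CPM) overlapped too, whereas mutant E440 (3.57 to 4.77 CPM) lay above E433.

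**Figure D4:**
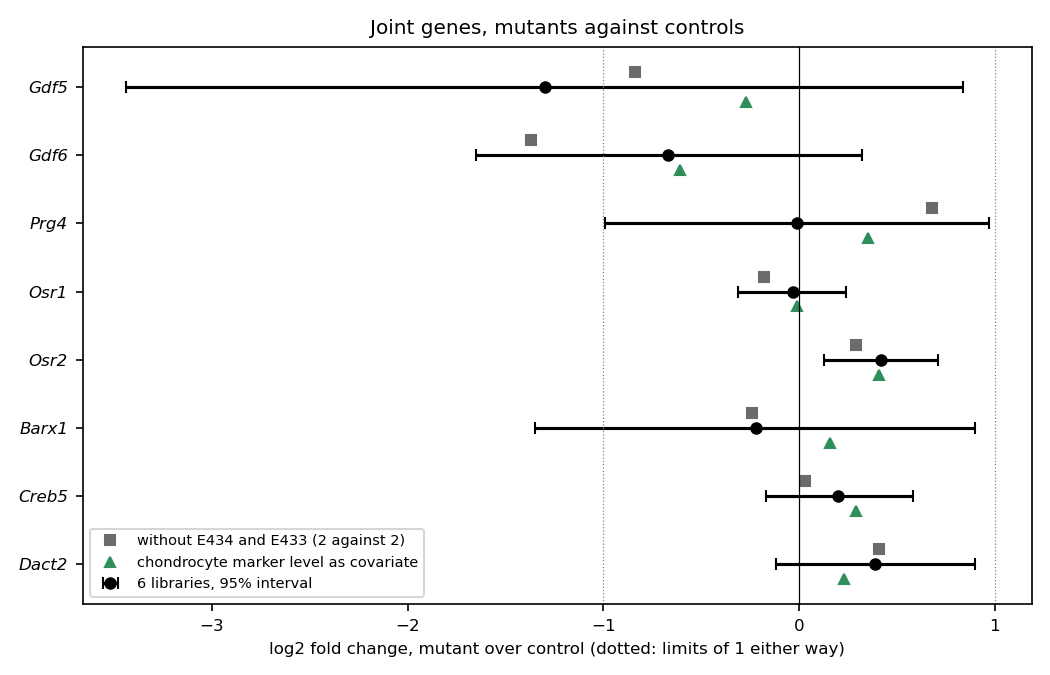
Log2 fold change (mutant over control) of each joint gene with all 6 libraries (circles, bars are 95% intervals from edgeR), without E434 and E433 (squares) and with the chondrocyte marker level as a covariate (triangles). The interval of Osr2, 0.13 to 0.71, is the only one that leaves out 0. The squares and triangles of Gdf5, Gdf6, Barx1 and Prg4 lie furthest apart.

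Leaving out both cartilage-rich embryos, E434 and E433, changed the picture for the set. In this comparison of 2 against 2, each side held a close pair of libraries, and 37.6% of all genes had an adjusted p-value under 0.1 and 8.25% also passed the fold limit. With that background, 6 of 8 joint genes had an adjusted p-value under 0.1 in edgeR: Gdf5, Gdf6 and Osr1 lower and Prg4, Osr2 and Dact2 higher in mutants. Only Gdf6 also passed the fold limit, with a log2 fold change of -1.37 (SE 0.329, adjusted p = 0.00265 in edgeR). Gdf5 was at -0.84 (adjusted p = 0.0298) and Prg4 at 0.68 (adjusted p = 0.0184) in the same edgeR fit. When each close pair was instead summed and treated as 1 sample, 0 of 8 reached an unadjusted p-value of 0.05 in edgeR. Of all 26596 genes tested, 769 reached it and 0 passed the limits. With so few genes reaching it, 0 of 8 says little about the joint genes.

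The receptors and Smads through which GDF5 and GDF6 signal mostly overlapped between groups. Of 11 genes, 0 passed the limits in edgeR, 1 had an unadjusted p-value under 0.05 (Smad9, lower) where 10.6% of all genes tested did and 4.70% did so with a lower level, and the median log2 fold change was -0.14. Bmpr1b, the type I receptor that GDF5 prefers, had 19.7, 23.0 and 16.2 CPM in controls and 18.2, 20.4 and 16.2 CPM in mutants, a log2 fold change of -0.10 (SE 0.159, adjusted p = 0.843 in edgeR). Acvr2a, a type II receptor, was the 1 gene of this list above every control in all mutants, as 6.81% of all genes were. Its log2 fold change was 0.17. Smad9, a receptor-regulated Smad whose own transcription responds to BMP signals, had 4.56, 9.18 and 4.45 CPM in controls and 2.45, 3.32 and 2.64 CPM in mutants. Every mutant lay below every control for Smad9, as for 8.21% of all genes, and the log2 fold change was -1.11 (SE 0.323, adjusted p = 0.389 in edgeR and 0.0382 in DESeq2). Smad9 passed both limits in DESeq2, as 1.79% of all genes did.

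The targets of BMP and GDF signals lay lower in mutants, while their secreted antagonists overlapped. All 9 genes of this list had log2 fold changes below 0, with a median of -0.27. For 5 of 9 (Id1, Id2, Id3, Smad6 and Smad7) all mutants lay below every control, as for 8.21% of all genes tested. The same 5 also reached the 0.05 level of edgeR before adjustment, where 4.70% of all genes tested did so with a lower level. Id3, an inhibitor of basic helix-loop-helix factors and a direct BMP target, had 132, 129 and 128 CPM in controls and 80.3, 81.1 and 78.7 CPM in mutants. It fell by 0.70 on the log2 scale (SE 0.0629, adjusted p = 0.0775 in edgeR). It was the 1 gene of the 42 in the 4 pathway lists with an adjusted p-value under 0.1 at any fold change, where 0.0902% of all genes tested had one, and it missed the fold limit. Smad6, an inhibitory Smad induced by BMP signals, had 17.3, 18.3 and 16.7 CPM in controls and 10.5, 9.86 and 11 CPM in mutants (log2 fold change -0.74, SE 0.101, adjusted p = 0.145 in edgeR and 9.64e-07 in DESeq2). All 5 target genes kept their direction in the 15 other fits, whereas Nog, Grem1 and Chrdl2 turned to 0.39, 0.21 and 0.13 with the chondrocyte covariate. Of the antagonists, Nog, Grem1, Chrd and Chrdl2 each overlapped between groups, and Grem1, with 34.6 CPM, was highest in mutant E433. These target genes answer to BMP ligands in general and are expressed in many cell types of the tissue. Markers of osteoblasts (6 of 6) and of tendon (4 of 4) were likewise below every control in all mutants, and their part in the values of the targets was not tested.

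**Figure D5:**
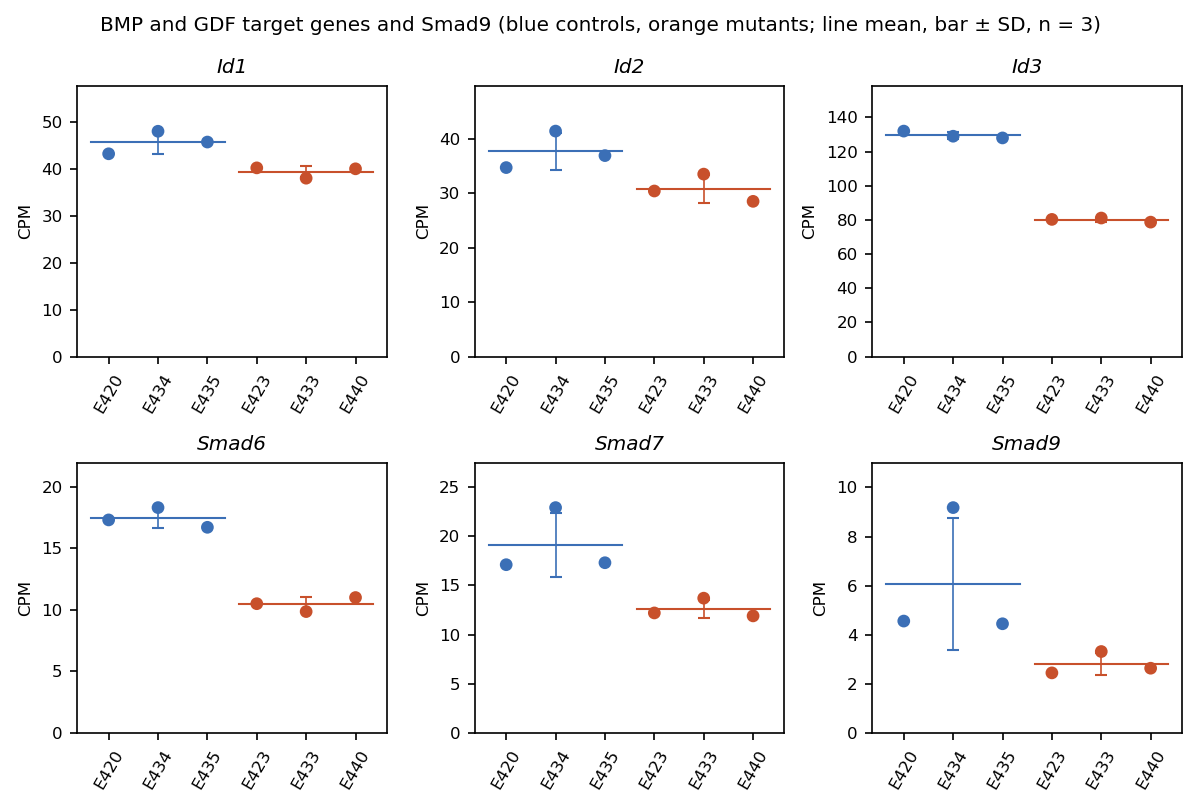
CPM of the BMP and GDF target genes Id1, Id2, Id3, Smad6 and Smad7 and of Smad9 in every library (vertical axes start at 0), with controls in blue, mutants in orange, the group mean as a line and 1 SD either way as a bar (n = 3). In each panel all mutants lie below all controls, and Id3 falls from 128 to 132 CPM to 78.7 to 81.1 CPM.

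Of 16 other genes of the interzone, synovium and articular cartilage, 0 passed the limits in edgeR and 3 fell under an unadjusted p-value of 0.05, all lower (Col22a1, Cilp and Nfatc1), where 4.70% of all genes tested were lower at that p-value and 10.6% reached it either way. The median log2 fold change of this list was -0.05. Col22a1, a collagen of tissue junctions that include the articular surface and the muscle to tendon junction, had 128, 149 and 125 CPM in controls and 70.0, 41.3 and 66.3 CPM in mutants, a log2 fold change of -1.18 (SE 0.205, adjusted p = 0.201 in edgeR and 1.18e-05 in DESeq2). Col22a1 passed both limits in DESeq2 and also in edgeR with the chondrocyte covariate, a fit in which 0.932% of all genes did. Cilp, a matrix protein of middle-zone articular cartilage, had 36.5, 47.5 and 36.0 CPM in controls and 22.2, 26.6 and 22.8 CPM in mutants (log2 fold change -0.74, SE 0.140, adjusted p = 0.227 in edgeR). The 4 tendon markers summed to 136 to 215 CPM in controls and 76.0 to 101 CPM in mutants, beside both of these genes. Erg, an ETS factor of articular chondrocytes, lay at 24.6, 37.0 and 23.7 CPM in controls and 16.7, 26 and 14.5 CPM in mutants, and overlapped through E433.

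The joint Wnt ligands moved in a different way from Gdf5. Wnt4 had 54.5, 16.2 and 50.5 CPM in controls and 95.3, 28.0 and 96.7 CPM in mutants, and Wnt16 was likewise lowest in E434 and E433. These are the embryos with the fewest keratinocyte markers, and Wnt4 and Wnt16 are also made in skin. Their part in the Wnt values was not tested. Wnt9a, a Wnt of the early interzone, had 18.8, 16.3 and 19.8 CPM in controls and 12.7, 18.3 and 12.1 CPM in mutants, which put E423 and E440 below all controls and E433 among them, the same placing as for Gdf6. For Wnt9a the log2 fold change was -0.35 (SE 0.184, adjusted p = 0.544 in edgeR).

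Among the close relatives of the members, 2 of 6 fell under an unadjusted p-value of 0.05 in edgeR, both lower, against 4.70% of all genes tested that were lower at that p-value, and 0 passed the limits. Dact1, a paralog of Dact2 and also a Dishevelled binding adaptor, had 29.1, 40.3 and 30.4 CPM in controls and 16.7, 28.0 and 15.2 CPM in mutants (log2 fold change -0.74, SE 0.259, adjusted p = 0.428 in edgeR), whereas Dact2 had a log2 fold change of 0.39. The difference between these paralogs was not tested. Gdf7, the third member of the GDF5 subfamily, was near the limit of detection, with 4, 20 and 28 counts in controls and 2, 2 and 4 counts in mutants (adjusted p = 0.381 in edgeR). Barx2, the paralog of Barx1, had 26.6, 3.93 and 30.4 CPM in controls and 47.0, 16.1 and 46.9 CPM in mutants, and so was lowest where the keratinocyte markers were lowest, unlike Barx1. Atf2 and Atf7, relatives of Creb5, had log2 fold changes of -0.05 and 0.01.

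The genes whose pattern over the 6 libraries was most like that of each member were found by the root mean square difference of centred log2 CPM, as a description of 6 libraries. For Gdf5 they were Scin (0.182), Pcolce2 (0.214) and Fbln7 (0.229), against a spread of Gdf5 itself of 1.29 (SD, log2 CPM). For Gdf6 they were Tspo2, Dbx1 and Gpr83, at 0.136 to 0.149 against an SD of 0.614. For Prg4 they were Fry, Dio2 and Nos1, at 0.134 to 0.145 against 0.522, and for Barx1 Slc35e3, Fam19a5 and Tram2, at 0.110 to 0.116 against 0.536. For Osr2 they were Kitl, Xrcc3 and Amt (0.0550 to 0.0599 against 0.255). The members with the flattest pattern, Osr1 (SD 0.127) and Creb5 (SD 0.217), were closest to Kif20a and to Xndc1, and Dact2 (SD 0.312) was closest to Rtn4r. No member was among the nearest 3 of another. Gdf6 and Barx1 could not be, because their mean over the libraries was under the 1 CPM asked of a neighbour.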

How the data were processed

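RNA-Seq counts of 6 rib libraries (3 control and 3 mutant embryos) were analysed, with groups taken from the genotype labels. The authors aligned 42-base paired reads to GRCm38 with HISAT2 2.1.0 and deposited counts per gene from featureCounts 1.6.0, not normalized, with each end counted on its own, strand not used, only primary alignments counted and reads overlapping exons of 2 genes left unassigned. The authors also deposited expected counts and TPM per gene from STAR 2.7.6 and RSEM 1.2.31. Their own comparison tables, which hold log2 fold changes and p-values, and 12 columns of per-sample values in them were not used. Of 55487 gene IDs, 55141 had a symbol.

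The 26596 genes that reached a sum of 10 counts over all libraries entered the test, made with edgeR 4.0.16 (TMM factors, glmQLFit, glmQLFTest) in R 4.3.3, with Benjamini-Hochberg adjustment over all of them. Limits were an adjusted p-value of 0.1 and a log2 fold change of 1 either way. Standard errors are the fold change over the square root of F. Log2 CPM used a prior count of 2. Expected counts were rounded. Alternatives were DESeq2 1.42.0, its size factors, a robust fit, filterByExpr, no low-count filter, the expected counts, each library left out, E434 and E433 left out, close libraries summed, and a chondrocyte marker covariate. Library pairs were compared over genes that reached 200 counts in both together. The edgeR and DESeq2 steps were tested on simulated counts with known fold changes, independent libraries and the same dispersion for all genes. Unlike the data, these held no close pairs of libraries and no cartilage-rich embryos. Exact Poisson intervals are at 95% and, without molecular identifiers, cover counting error only.

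The genes named were the 8 members, Foxc1 and Foxc2, 4 pathway lists (42 genes), 10 marker lists and, for each member, the 3 genes of at least 1 CPM with the most similar pattern. Members, lists and alternatives were chosen with earlier results of these data known. Sequences and overlaps came from GENCODE transcripts on GRCm38 (an older release than the authors') and from the exons of the count table; the transcript with the longest coding sequence was used for each gene.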

Additional observations from a re-analysis of the deposited data

How the results depend on the processing

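No paired analysis was possible because the embryo numbers in the labels are not shared between the groups and the litter of each embryo was not given in the sources used here. The count of joint genes past the limits, 0 of 8, ranged from 0 to 1 when each library was left out in turn and was 1 without E434 and E433 (Gdf6 each time). The count of pathway genes past the limits, 0 of 42, was 2 with DESeq2's Wald test (Smad9 and Col22a1, among 477 of all genes), 1 with the chondrocyte marker level as a covariate (Col22a1, among 248), 1 without E434 and E433 (Gdf7, among 2066), 1 with no limit on the fold change (Id3, among 24), and 0 to 1 leaving out each library (Dact1, without E433, among 1087), against 17 of all genes in the reported fit. Osr2, Gdf6, Creb5 and Dact2 kept their direction in all 15 other fits. Gdf5 ranged from -2.23 to 0.09 over the libraries left out and from -1.43 to -0.27 otherwise. Prg4 turned to 0.13 on expected counts, 0.35 with the covariate and 0.68 without E434 and E433, and ranged from -0.30 to 0.60 leaving out each library. Osr1 turned to 0.04 with the close libraries summed and ranged from -0.13 to 0.03, and Barx1 turned to 0.16 with the covariate and ranged from -0.66 to 0.21. The causes were not tested. Levels recomputed from counts per exon length moved to 35.0 for Osr1, 8.15 for Osr2, 2.84 for Creb5 and 2.16 for Dact2. They moved to 0.957 for Barx1 and 0.610 for Gdf6, and were 2.83 for Gdf5 and 1.37 for Prg4. Osr1 and Osr2 stayed highest, but Creb5 was then level with Gdf5, and Dact2 stood further above Prg4. Counts were low for Barx1, Gdf6, Gdf7 and Chrdl2, at most 63 in any library.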
